A study of Mus musculus with 4 samples.

Results

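A set of 8 granule cell lineage genes, of the 32532 gene names counted, were followed in ribosome-bound RNA pulled down from the deep cerebellar nuclei of mice. They are Cbln3, Fat2, Chn2, Etv1, Neurod1, Neurod2, Zic1 and Zic2, found by exact symbol in the count table of every library. All 4 libraries belong to 1 group: adult mice of the Slc17a6-TRAP line JX883, carrying the transgene Slc17a6-EGFP/Rpl10a, untreated, with 3 mice pooled per library. In translating ribosome affinity purification (TRAP), a ribosomal protein fused to EGFP is made under the regulatory sequences of a chosen gene, here Slc17a6, the vesicular glutamate transporter of many glutamatergic neurons. Tagged polysomes were then captured from homogenised tissue with anti-EGFP antibodies. No input RNA, untagged control or second tissue was used here, so the values are levels in the pulldown, not enrichments over the tissue. The labels do not say whether the pools were separate litters or days, so every spread and p-value concerns these 4 libraries, and may be partly technical. With tissue in bulk, more granule cell material and more RNA per cell cannot be told apart.

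Granule cells are small glutamatergic neurons of the cerebellar cortex that send parallel fibres to Purkinje cells. They descend from Atoh1-expressing progenitors of the rhombic lip, the germinal edge that also gives rise to the glutamatergic neurons of the cerebellar nuclei. Neurod and Zic factors act in the development of this lineage, whereas Cbln3 and Fat2 are known for high expression in mature granule cells. Etv1, Zic1 and Chn2 are also made by neurons elsewhere in the brain, so the 8 genes are not all exclusive to granule cells.

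Neurod factors bind the E-box, a motif spelled CANNTG, paired with a second protein of the same class. The stretches of 250 bases before the RefSeq start (GRCm38.p6) of Cbln3, Neurod1, Neurod2 and Zic1 are shown because these genes had the highest member level, formed the Neurod pair and led the Zic pair. Capitals mark each E-box, searched on both strands, which for this motif read the same. By the GENCODE coordinates given for these genes below, each gene starts inside its window. The last bases of each window thus lie within the gene by that annotation. Cbln3 lies at chr14:55884257-55884506, Neurod1 at chr2:79456637-79456886, Neurod2 at chr11:98329646-98329895 and Zic1 at chr9:91365769-91366018, all on the minus strand and printed 5′ to 3′.
Cbln3: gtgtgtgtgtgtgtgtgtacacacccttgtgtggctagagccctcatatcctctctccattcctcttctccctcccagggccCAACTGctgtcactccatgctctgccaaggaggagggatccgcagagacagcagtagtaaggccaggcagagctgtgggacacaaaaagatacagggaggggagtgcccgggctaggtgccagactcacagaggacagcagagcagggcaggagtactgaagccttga
Neurod1: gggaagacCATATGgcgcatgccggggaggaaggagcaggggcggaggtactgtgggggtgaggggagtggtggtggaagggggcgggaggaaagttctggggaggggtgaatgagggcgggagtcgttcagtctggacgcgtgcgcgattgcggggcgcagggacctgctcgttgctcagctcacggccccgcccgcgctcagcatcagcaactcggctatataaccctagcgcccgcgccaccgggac
Neurod2: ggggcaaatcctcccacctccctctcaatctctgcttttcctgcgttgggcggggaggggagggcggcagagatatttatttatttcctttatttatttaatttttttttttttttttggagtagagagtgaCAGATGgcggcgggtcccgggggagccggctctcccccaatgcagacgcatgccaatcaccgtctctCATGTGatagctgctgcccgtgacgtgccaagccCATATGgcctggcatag
Zic1: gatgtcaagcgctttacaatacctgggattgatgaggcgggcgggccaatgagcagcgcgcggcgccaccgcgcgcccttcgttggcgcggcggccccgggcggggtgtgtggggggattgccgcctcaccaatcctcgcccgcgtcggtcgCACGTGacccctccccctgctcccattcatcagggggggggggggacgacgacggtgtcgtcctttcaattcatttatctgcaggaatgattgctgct
Of these 4 windows, Neurod2 alone held the version CAGATG, searched on both strands, 118 bases before its start, and 3 E-boxes in all. Cbln3, Neurod1 and Zic1 held 1 E-box each. The RefSeq table covered 7 of the 8 genes with 11 start sites. An E-box was in 9 of the 11 windows, with at least 1 such window for each of the 7 genes. Such a match is common, since 66.2% of 32851 windows of the same length held an E-box of any form. The CAGATG version was in 2 of the 11 windows, those of Etv1 and Neurod2, against 14.4% of all windows. The version CAGCTG was in 2 of the 11, both of Chn2, against 13.0%. The letters CCTGCTG, searched on both strands as a short Zic-type site, were in none of the 11 windows and in 8.44% of all windows.

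Every member was detected well above the counting limit in every library. The 32 member values ran from 183 to 4636 counts, in libraries with 9621762, 10306407, 10436291 and 10988373 counts assigned to genes in replicates 1 to 4. At this depth the lowest value, 183 counts of Zic2 in replicate 1, had an exact Poisson 95% interval from 16.4 to 22.0 CPM, the counts per 1e6 assigned counts. These intervals cover counting error only. The kit is not given, so whether reads carry molecular identifiers is not known here. Each level below is given as CPM over all named genes, with the mean and SD over 4 libraries. The tagged population's own gene, Slc17a6, varied little, with 2237, 2011, 2014 and 2309 CPM in replicates 1 to 4.

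Cbln3 encodes a secreted cerebellin of granule cells, and in mice it leaves the cell in complexes with Cbln1. It had 444 CPM in replicate 3, against 210, 236 and 167 CPM in replicates 1, 2 and 4 (264 ± 123 CPM, SD, n = 4). Replicate 3 was the highest library, at 1.88 times the next highest, and the remaining libraries lay close together. Cbln3 is on chromosome 14 (55878913 to 55884392, minus strand, mm10) with 4866 bases of exon.

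Fat2 encodes a very large atypical cadherin found on parallel fibres. The gene had 266 CPM in replicate 3, against 73.0, 105 and 104 CPM in replicates 1, 2 and 4 (137 ± 87.4 CPM). Its replicate 3 value was 2.83 times the mean of the other 3 libraries, the widest gap of the 8 genes. It lies on chromosome 11 (55250609 to 55336564, minus strand) and has 14528 bases of exon, so its CPM gathers reads over a long transcript.

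Chn2 encodes a chimaerin, a protein that switches off the small GTPase Rac. It stood at 223 CPM in replicate 3, against 110, 160 and 127 CPM in replicates 1, 2 and 4 (155 ± 49.8 CPM). The gap was narrower here, 1.68 times the mean of the other 3. Chn2 (chromosome 6, 54039554 to 54301810, plus strand) shares 9.50% of its exon bases with 9130019P16Rik on the opposite strand, so some of its reads are uncertain if counting ignored strand.

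Etv1 encodes an ETS transcription factor that in mouse granule cells rises with maturation. It had 117 CPM in replicate 3, against 55.8, 88.6 and 79.4 CPM in replicates 1, 2 and 4 (85.1 ± 25.1 CPM). Of the 8 genes it showed the smallest gap, 1.56 times the mean of the other 3, and 1.32 times replicate 2. It lies on chromosome 12 (38779380 to 38870484, plus strand).

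The helix-loop-helix factors Neurod1 and Neurod2 drive and maintain neuronal differentiation. Neurod1 had 117 CPM in replicate 3, against 51.3, 52.9 and 52.7 CPM in replicates 1, 2 and 4 (68.5 ± 32.3 CPM). The other libraries were almost level and replicate 3 stood 2.23 times above their mean. Neurod2 had 135 CPM in replicate 3, against 37.0, 80.9 and 55.0 CPM in replicates 1, 2 and 4 (76.9 ± 42.5 CPM). Unlike Neurod1, Neurod2 was spread across the other libraries too, with replicate 2 at 2.19 times replicate 1. Neurod1 lies on chromosome 2 (79452521 to 79456751) and Neurod2 on chromosome 11 (98325415 to 98329648), both on the minus strand. Neurod1 shares 201 exon bases with Cerkl on the same strand, where reads may be set aside as ambiguous.

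Zic1 and Zic2 encode zinc finger factors of dorsal neural tissue and of granule cells. Zic1 had 295 CPM in replicate 3, against 132, 156 and 170 CPM in replicates 1, 2 and 4 (188 ± 73.0 CPM). Zic2 had 63.9 CPM in replicate 3, against 19.0, 28.4 and 22.0 CPM in replicates 1, 2 and 4 (33.3 ± 20.8 CPM). In both, replicate 3 lay above all others, by 1.93 times their mean for Zic1 and 2.76 times for Zic2. Zic1 is on chromosome 9 (91358058 to 91365810, minus strand) and Zic2 on chromosome 14 (122475435 to 122479852, plus strand). The zinc finger regions of Zic genes are alike, so reads that matched more than 1 copy equally well may be missing from these counts.

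**Figure D1:**
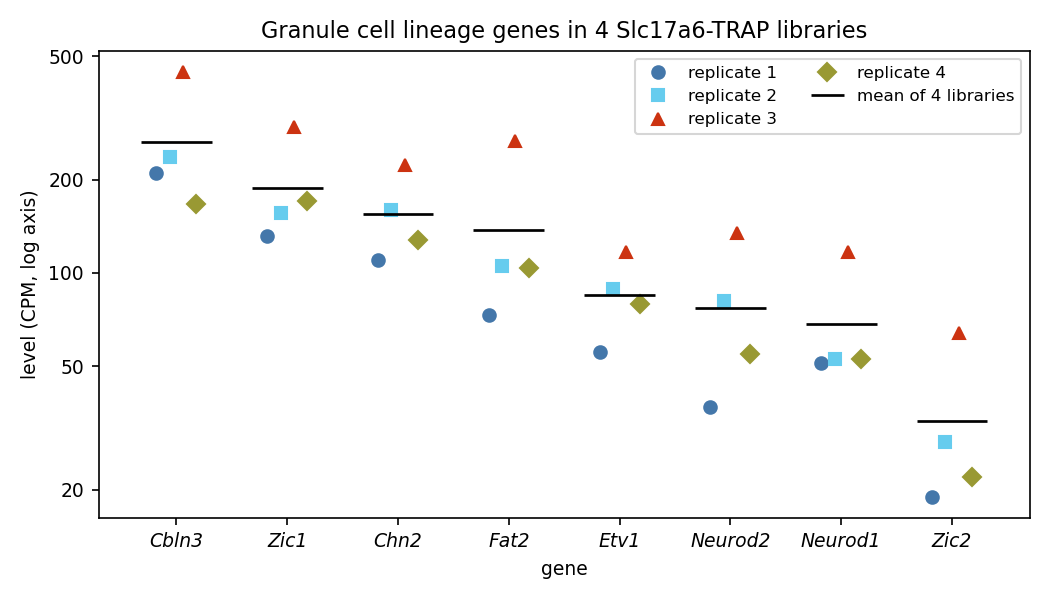
Level of the 8 granule cell lineage genes (CPM, log axis) in each of the 4 libraries, 1 symbol per library and a bar for the mean. The triangle of replicate 3 is the highest point for all 8 genes, from 63.9 CPM for Zic2 to 444 CPM for Cbln3.

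Between genes, levels were compared as CPM per kb of exon, which takes out gene length. On that scale Cbln3 came first at 54.3 ± 25.3 CPM per kb, then Zic1 at 33.1 ± 12.8, Chn2 at 26.7 ± 8.57, Neurod1 at 25.1 ± 11.8 and Neurod2 at 24.5 ± 13.5 CPM per kb (SD, n = 4). Zic2 at 11.6 ± 7.21, Fat2 at 9.43 ± 6.02 and Etv1 at 6.40 ± 1.89 CPM per kb formed the lower end. Fat2, the fourth in CPM, was the seventh per kb. Cbln3 stood above Zic1 in all 4 libraries (mean log2 ratio 0.68 ± 0.32), and Neurod2 stood above Zic2 in all 4 (1.05 ± 0.24). Zic2 exceeded Fat2 by 0.29 ± 0.15, also in all 4. The other neighbours did not differ beyond their spread. Zic1 and Chn2 differed by a log2 ratio of 0.29 ± 0.21 and changed order in 1 library, as did Chn2 and Neurod1 (0.13 ± 0.28) and Neurod1 and Neurod2 (0.10 ± 0.44). Fat2 and Etv1 kept their order in 4 libraries, but their mean log2 ratio of 0.40 was no larger than its SD of 0.42. Among 12305 names with a length and a count in every library, Cbln3 was above 95%, Zic1 above 90.6% and Etv1 above 57.7%.

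All members lay below Slc17a6, which had 397 ± 28.4 CPM per kb. The log2 ratio of Cbln3 to Slc17a6 was -2.02 in replicate 3, against -3.25, -2.93 and -3.62 in replicates 1, 2 and 4, with a mean of -2.95 ± 0.68 (7.75-fold lower). The mean ratio was -3.63 ± 0.56 for Zic1, -3.92 ± 0.52 for Chn2, -4.05 ± 0.63 for Neurod1 and -4.15 ± 0.86 for Neurod2. It was -5.20 ± 0.83 for Zic2, -5.48 ± 0.83 for Fat2 and -5.89 ± 0.48 for Etv1 (59.2-fold lower). Ratios per kb are of log2(CPM per kb + 0.5). The ratios depend on the length used. With the longest transcript as length they were -5.31 for Etv1 and -3.35 for Chn2, and with no length, in CPM, -4.14 for Fat2. As a share of the CPM of Slc17a6, Cbln3 reached 22.1% in replicate 3, against 9.37, 11.8 and 7.24% in replicates 1, 2 and 4.

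**Figure D2:**
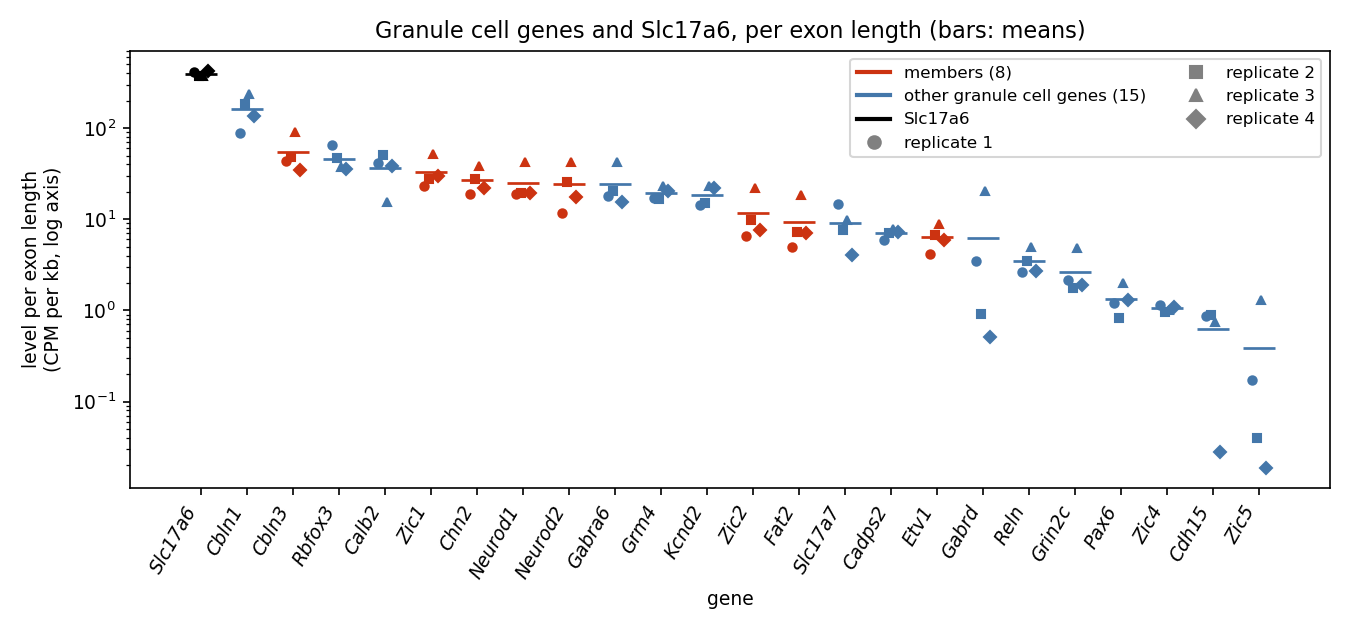
Level per exon length (CPM per kb, log axis) of the 8 members, 15 other granule cell genes with a count in every library, and Slc17a6, 1 symbol per library with bars for the means. Cbln3 (54.3 CPM per kb) is the top member, below Slc17a6 (397) and Cbln1 (161).

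To ask whether 1 library differed, each was set against the other 3 over 15083 genes with edgeR's quasi-likelihood test, adjusted over all of them by Benjamini-Hochberg with a threshold of 0.05. No member passed in any of the 4 comparisons. For replicate 3, 0 of 8 members were called, and 0.0% of all tested genes were called. At an unadjusted p under 0.05 there were 1058 genes in that comparison, and DESeq2 called 91 genes (0.634%), none of them a member. With 1 library on one side, the spread comes from 3 libraries, and 2 residual degrees of freedom remain.

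All 8 members had a positive log2 fold change in replicate 3, with a median of 1.18, whereas the median over all tested genes was -0.10. Fat2 had the largest fold change, 1.52 ± 0.42 on the log2 scale (SE, edgeR adjusted p = 0.40). Zic2 followed at 1.49 ± 0.50 (adjusted p = 0.509), then Neurod2 at 1.24 ± 0.48 (adjusted p = 0.603), Neurod1 at 1.19 ± 0.42 (adjusted p = 0.547) and Cbln3 at 1.16 ± 0.40 (adjusted p = 0.528). For Zic1 it was 0.97 ± 0.41, for Chn2 0.78 ± 0.42 and for Etv1 0.66 ± 0.45 (edgeR adjusted p from 0.665 to 0.814). Before adjustment, 6 of the 8 had a p under 0.05, where 3.53% of all tested genes did so with a higher level in replicate 3. Replicate 3 was the highest library for all 8 members, and for 25.4% of tested genes. Among 8845 genes of at least 10 CPM that share was 24.6%. In those genes the median ratio of replicate 3 to the mean of the other 3 was 0.94, while the members ran from 1.56 to 2.83. The 8 genes were proposed with earlier results of these libraries in view, and they are not independent of each other, so these shares describe the pattern and do not test it.

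Replicate 1 was the lowest library for 7 of the 8 members, and for 18.1% of tested genes, the exception being Cbln3, lowest in replicate 4. All 8 members had a negative fold change there, from -0.62 ± 0.50 for Cbln3 to -1.48 ± 0.56 for Neurod2 (log2, SE), with an edgeR adjusted p of 1.0 for each. These values rest in part on replicate 3 being among the libraries compared. With replicate 3 left out, replicate 1 gave -0.14 for Cbln3, -0.24 for Neurod1, -0.52 for Zic1, -0.58 for Chn2, -0.60 for Zic2, -0.72 for Fat2, -0.79 for Etv1 and -1.07 for Neurod2. None of the 8 was called, beside 0.0199% of all tested genes by edgeR and 0.148% by DESeq2. Before adjustment, Fat2 and Neurod2 had a p under 0.05, where 1.62% of all tested genes did so with a lower level in replicate 1. In replicates 2 and 4 the members' log2 fold changes ran from -0.51 for Fat2 to 0.08 for Neurod2 in replicate 2, and from -0.69 for Cbln3 to 0.00 for Etv1 in replicate 4. Of all tested genes, edgeR called 0.0% in replicate 2, with 78 genes at an unadjusted p under 0.05 and 5 (0.0267%) called by DESeq2. In replicate 4 edgeR called 0.0464% and DESeq2 3.22%, with no member among them.

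**Figure D3:**
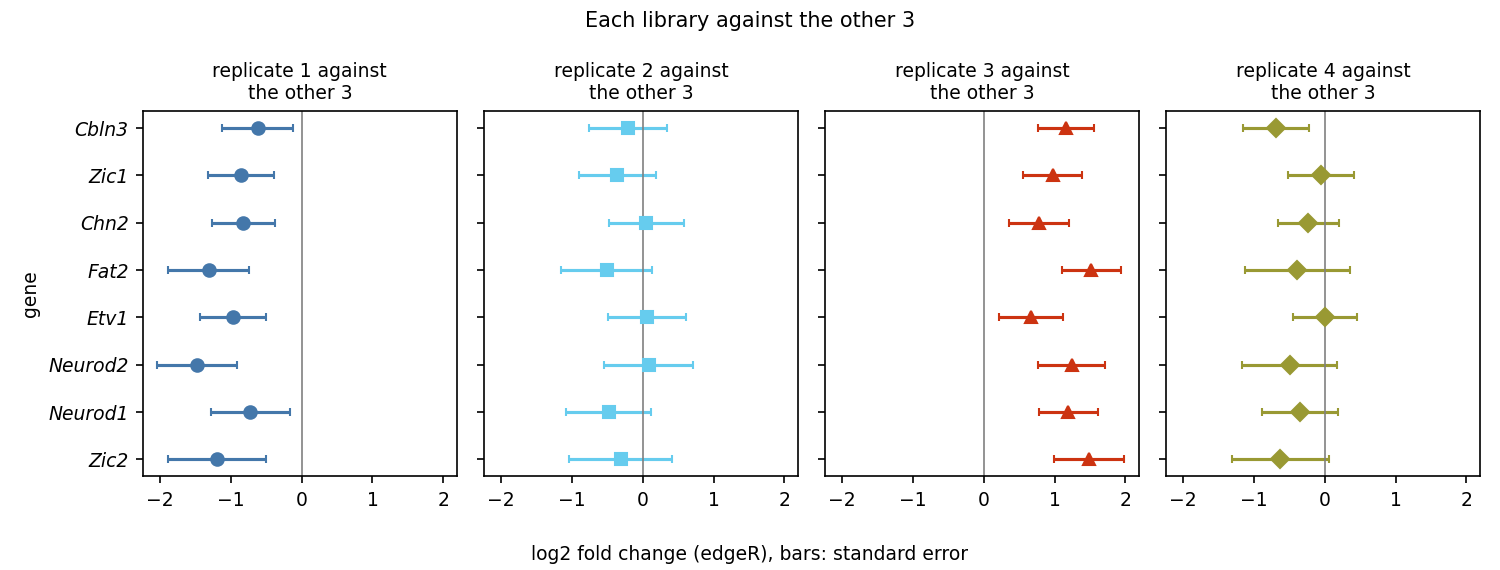
Log2 fold change of each member in each library against the other 3 (edgeR, bars show the standard error). In replicate 3 all 8 points lie right of 0, from 0.66 to 1.52, and in replicate 1 all lie left of it; no point passed the threshold after adjustment.

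The ratios between members varied less from library to library than those within the other lists given here. No such spread was taken over gene pairs in general. Over libraries, the SD of the log2 ratio between 2 members had a median of 0.31 over 28 pairs, ranging from 0.13 to 0.44. For 7 markers of glutamatergic nuclear neurons the same SD had a median of 0.98 over 21 pairs, and for 16 other granule cell genes 0.99 over 120 pairs. Those lists include genes with few counts, whose ratios are noisier. Set against Slc17a6, the members' ratios had a median SD of 0.66. Taken alone, Fat2 and Zic2 were the most variable members, with coefficients of variation of 63.8% and 62.2%, above 93.6% and 92.7% of the genes of at least 10 CPM. Etv1 at 29.5% was near the middle, above 49.1% of genes.

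The ribosomal RNA precursor Rn45s took 13.6% of counts in replicate 3 and 14.2% in replicate 2, against 4.99% and 4.92% in replicates 1 and 4. The members' levels in replicate 3 were 1.32 times (Etv1) to 2.54 times (Fat2) those in replicate 2. The part of the Rn45s share in the members' levels was not tested. With Rn45s left out of the counts the members' fold changes in replicate 3 kept their sign and no member was called. Replicates 1 to 3 carry the library numbers 1300 to 1302 and replicate 4 carries 1476. Within the first 3 libraries alone, the comparison of replicate 3 with replicates 1 and 2 gave Fat2 an edgeR adjusted p of 0.102 and the other members 0.196 to 0.456.

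Other genes known for high expression in granule cells were highest in replicate 3 only in part. All 16 were tested, 13 reached 1 CPM in every library, and 10 were highest in replicate 3. None was called in replicate 3, where 12 of 16 had a positive log2 fold change with a median of 0.43. Gabra6, which encodes a subunit of the GABA-A receptor, had 106 CPM in replicate 3, against 45.1, 51.2 and 38.1 CPM in replicates 1, 2 and 4, with replicate 3 the highest as for Cbln3. Gabrd, its partner outside synapses, had 58.2 CPM in replicate 3, against 10.1, 2.62 and 1.46 CPM in replicates 1, 2 and 4. Grin2c, an NMDA receptor subunit, had 24.4 CPM in replicate 3, against 10.8, 8.93 and 9.46 CPM in replicates 1, 2 and 4.

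Several other genes of the same list did not share that order. Slc17a7, the vesicular glutamate transporter of mature granule cells, was highest in replicate 1 at 79.2 CPM, with 41.2, 53.5 and 22.1 CPM in replicates 2, 3 and 4. Rbfox3, which encodes the neuronal antigen NeuN, was highest in replicate 1 at 383 CPM, with 272, 217 and 207 CPM in replicates 2, 3 and 4. Barhl1 had 26.1 CPM in replicate 1, 3.88 and 3.55 in replicates 2 and 3, and no count in replicate 4, which allows up to 0.273 CPM there. Calb2 had 27.2 CPM in replicate 3, against 72.1, 88.2 and 67.1 CPM in replicates 1, 2 and 4. Replicate 3 was thus the highest library for the members, Gabra6, Gabrd and Grin2c, and not for Slc17a7, Rbfox3, Barhl1 or Calb2.

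Genes of dividing progenitors were at or near the counting limit. None of the 5 reached 1 CPM in every library, and their summed level was 5.75 CPM in replicate 3, against 4.99, 4.85 and 5.10 CPM in replicates 1, 2 and 4. Atoh1, the factor that specifies rhombic lip progenitors, had 1.94 CPM in replicate 2 and no count in the others, where up to 0.312, 0.287 and 0.273 CPM would go unseen in replicates 1, 3 and 4. Mki67, a gene of dividing cells, stood at 1.74 ± 0.96 CPM.

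Of 15 rhombic lip genes, 10 reached 1 CPM in every library and Olig3 had no count in any. Meis2, made by nuclear neurons, led at 342 ± 91.2 CPM and was lowest in replicate 3 (226 CPM). The list summed to 439 CPM in replicate 3, against 699, 551 and 715 CPM in replicates 1, 2 and 4, and 4 of the 15 genes were highest in replicate 3. Pax6, a granule lineage factor, was among these 4, with 23.6 CPM in replicate 3 against 14.0, 9.61 and 15.2 CPM in replicates 1, 2 and 4. None of the 13 rhombic lip genes tested was called in replicate 3.

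Each member was also placed beside the other genes of its family, per kb. Cbln1, the cerebellin that bridges parallel fibres and Purkinje cells, exceeded Cbln3 in all 4 libraries, with a log2 ratio of Cbln3 to Cbln1 of -1.57 ± 0.44. Cbln3 exceeded Cbln2 (1.99 ± 1.89) and Cbln4 (1.84 ± 0.60) in all 4. Cbln2 went the other way across libraries, with 9.58 CPM in replicate 3 against 27.4 to 118 CPM in replicates 1, 2 and 4. The ratio of Cbln3 to Cbln2 therefore ran from 0.08 in replicate 1 to 4.59 in replicate 3.

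Fat2 and its relative Fat1 were not told apart, with a log2 ratio of -0.31 ± 0.44 and Fat2 higher only in replicate 3. Fat2 and Fat3 changed order between libraries (0.57 ± 0.97), and Fat4 was lower than Fat2 in all 4 (ratio 3.00 ± 1.37). Chn2 lay below Chn1, a second chimaerin, in 3 libraries and was level with it in replicate 3, where the log2 ratio was 0.05, against -2.08, -0.58 and -0.63 in replicates 1, 2 and 4. Etv1 lay below Etv5 per kb in all 4 libraries (-0.53 ± 0.49) but above it in CPM in all 4 (1.12 ± 0.53), so that order rests on the length. Etv4 had no count in replicates 3 and 4, and Etv1 exceeded it by 3.20 ± 0.96 with a pseudocount of 0.5.

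Within the Neurod family the members were the leading genes in 3 of 4 libraries. Neurod6 came closest, with a log2 ratio of Neurod1 to Neurod6 of 1.34 ± 1.26 and of Neurod2 to Neurod6 of 1.24 ± 1.14, both negative in replicate 4. Neurod4 had at most 0.52 CPM and no count in replicate 3. Their partners were detected too. The E protein gene Tcf4 had 347 CPM in replicate 3, against 145, 194 and 247 CPM in replicates 1, 2 and 4. The other E protein genes did not share that order. Tcf12 was highest in replicate 4, at 77.9 CPM against 74.8 CPM in replicate 3. Tcf3 was lowest in replicate 3, at 4.70 CPM against 5.51, 6.50 and 7.10 CPM in replicates 1, 2 and 4. The Id genes, whose products block this class of factor, were low, with Id2 at 10.4 ± 3.46 CPM as the highest of 4.

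The Zic genes form pairs that point away from each other or overlap at their starts. Zic1 and Zic4 run on opposite strands of chromosome 9, sharing 60 exon bases, and Zic2 and Zic5 on opposite strands of chromosome 14 with annotated starts 9758 bases apart. Zic1 exceeded Zic4 by a log2 ratio of 4.36 ± 0.53 per kb, and Zic2 exceeded Zic5 by 3.82 ± 0.38, each in 4 of 4 libraries. Zic4 was nearly level, with 10.5 CPM in replicate 3 against 11.95, 9.99 and 11.4 CPM in replicates 1, 2 and 4, so the pattern of Zic1 was not that of its neighbour. Zic5 had 6.42 CPM in replicate 3, against 0.83, 0.19 and 0.09 CPM in replicates 1, 2 and 4. Those last values are 8, 2 and 1 counts. Zic1 exceeded Zic2 by 1.57 ± 0.31.

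Receptors and targets of the members' products showed no common direction. Nrxn2 and Nrxn3, which encode presynaptic partners of cerebellins, stood at 158 ± 49.5 and 296 ± 109 CPM, and Grid1, which encodes a delta glutamate receptor, at 20.6 ± 9.69 CPM. Nrxn2 was highest in replicate 3, Grid1 in replicate 1 and Nrxn3 in replicate 4. Rac1, the target of chimaerins, had 899 CPM in replicate 3, against 1592, 1191 and 1671 CPM in replicates 1, 2 and 4, and shares 51.4% of its exon bases with Daglb on the opposite strand. None of these 4 genes was called in replicate 3.

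Markers of several other cell types were also highest in replicate 3. Purkinje cell markers, 7 of 7 with a count in every library, summed to 3287 CPM in replicate 3, against 1356, 1641 and 1161 CPM in replicates 1, 2 and 4, and 6 of the 7 were highest there. Their summed level in replicate 3 was 2.37 times the mean of the others, beside 2.10 times for the members. Most of that sum came from Itpr1, Rgs8 and Car8, at 1738, 808 and 621 CPM in replicate 3. Pcp2, the exception, was highest in replicate 2, with 13.0 CPM against 9.68 CPM in replicate 3. GABA and glycine neuron genes, 4 of 4 highest in replicate 3, summed to 369 CPM there, against 114, 173 and 72.3 CPM in replicates 1, 2 and 4, with Slc6a5 at no count in replicate 4. Astrocyte and Bergmann glia markers summed to 714 CPM in replicate 3, against 304, 435 and 433 CPM in replicates 1, 2 and 4, with 5 of 6 highest there. Unipolar brush cell markers summed to 324 CPM in replicate 3, against 137, 234 and 220 CPM in replicates 1, 2 and 4, and oligodendrocyte lineage markers to 825 CPM, against 330, 556 and 762 CPM. Their part in the members' levels was not tested.

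Markers of glutamatergic nuclear neurons summed to 2466 CPM in replicate 3, against 2952, 2494 and 3004 CPM in replicates 1, 2 and 4. Of these 7 genes, 1 was highest in replicate 3. Most of the sum was Slc17a6 itself, at 2014 CPM in replicate 3, against 2237, 2011 and 2309 CPM in replicates 1, 2 and 4. Molecular layer and Golgi cell markers summed to 177 CPM in replicate 3, against 174.5, 159 and 115 CPM in replicates 1, 2 and 4, with Pax2 at no count in replicate 4. Microglia markers, with Aif1 at 0 in some libraries, were low but highest in replicate 3, at 11.5 CPM against 3.85, 4.85 and 10.6 CPM in replicates 1, 2 and 4. Endothelial markers, with Cldn5 at 0 in some, summed to 29.7 CPM in replicate 3, against 27.9, 8.64 and 20.7 CPM in replicates 1, 2 and 4. Choroid plexus markers summed to 196 CPM in replicate 2, almost all of it Ttr, and to 45.2, 5.46 and 0 CPM in replicates 1, 3 and 4. Genes of midbrain and thalamus, with Gbx2 at no count in any library, summed to 2512 CPM in replicate 1, where Tcf7l2 had 2486 CPM, and to at most 55.4 CPM in the others.

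**Figure D4:**
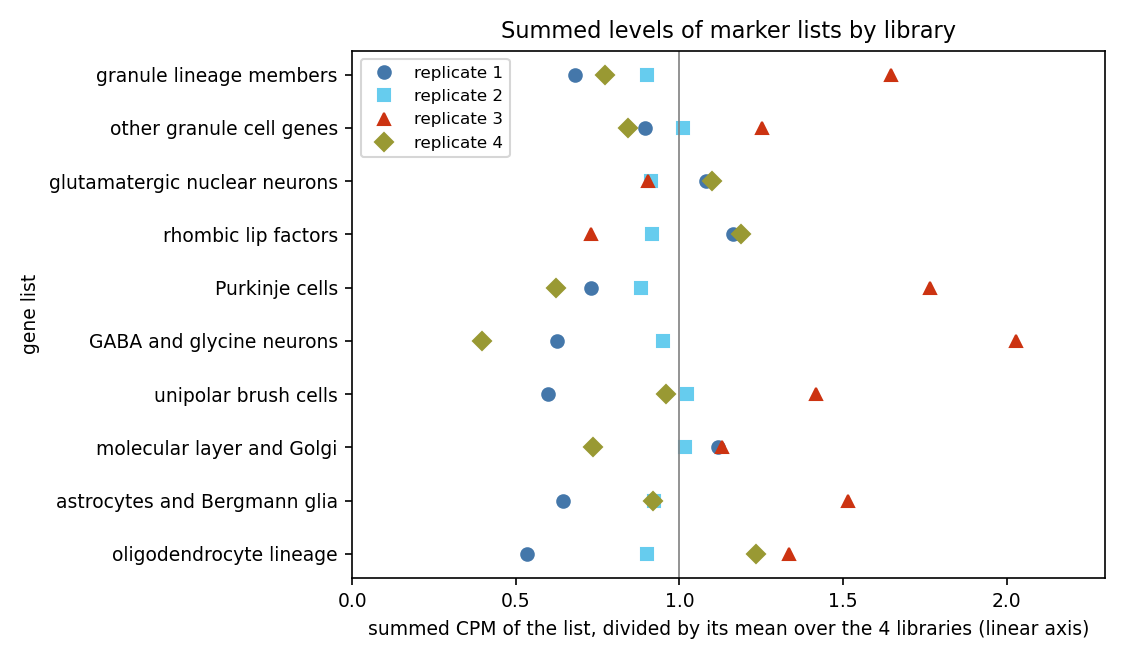
Summed CPM of 10 gene lists in each library, divided by the list's mean over the 4 libraries (linear axis). Replicate 3 lies furthest right for the members (1661 CPM), for Purkinje cell markers (3287 CPM) and for GABA and glycine neuron genes (369 CPM). It lies left of 1 for glutamatergic nuclear neuron markers (2466 CPM, of which Slc17a6 gave 2014 CPM).

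Genes with the most similar library profile were sought among 8844 others of at least 10 CPM, by the root mean square difference of log2 levels after each gene's mean was taken out. With only 4 libraries, close profiles are common and say little. Cbln3 lay nearest to Supv3l1 and St6galnac3 (0.031 and 0.034), Fat2 to Klhl34 and Clic4 (0.052 and 0.060), Etv1 to Dgkq and Aldh18a1 (0.043 and 0.045), and Chn2 to Nrxn2 and Pygb (0.032 and 0.042). Neurod1 lay nearest to Dis3l and Bach2 (0.033 and 0.037), Neurod2 to Dock5 and Susd6 (0.024 and 0.096), Zic1 to Jup and Pan2 (0.032 and 0.036), and Zic2 to Osbpl7 and Irf4 (0.044 and 0.051). No member was among the 2 nearest genes of another. The closest of them were Zic2 and Fat2, with Zic2 the eighth nearest to Fat2 at 0.135, and Chn2 and Etv1 at 0.113. Other members lay further apart, with Neurod2 at rank 1115 from Cbln3 (0.381) and Fat2 at rank 1686 from Etv1 (0.372).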

How the data were processed

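The files the authors deposited hold whole-number counts per gene name for each of 4 immunopurified libraries. The submitters' processing notes list STAR 2.0.0e, HTSeq and the build mm10. Which annotation and kit were used, and whether strand was counted, is not given in the sources. Rows for unassigned reads (no feature 14.1 to 21.1%, not unique 14.2 to 20.6%, ambiguous 2.04 to 2.94% of a library) were kept out of totals. No pair of libraries was a repeat of the same counts, with a chi-square of 34.9 to 127 for each degree of freedom.

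Exon lengths and coordinates came from GENCODE M21 (GRCm38, the build called mm10), which gave a length to 91.9% of names counted in every library. For each comparison of 1 library with the remaining 3, edgeR 4.0.16 was run under R 4.3.3 (TMM, filterByExpr, robust glmQLFit, glmQLFTest, two-sided), tested on simulated data first. Standard errors are the fold change over the root of its F statistic. DESeq2 1.42.0 was an alternative. Levels, ratios and counts of lists are descriptions without a test. The members and all gene lists were chosen with earlier results of these data known. Named are the 8 members, genes of 20 lists by counts with leading, lowest and undetected genes, and the 2 nearest profiles of each member. Gabra6, Gabrd, Grin2c, Slc17a7, Rbfox3, Calb2, Pax6, Mki67, Tcf4 and Rac1 were picked from those lists after their values were seen. So were Tcf12, Tcf3 and the family genes given library by library. Promoter windows and their letters are RefSeq's (GRCm38.p6). Some listed genes are not reported here.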

Additional observations from a re-analysis of the deposited data

Results flagged for a closer look

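Of 55 genes and list sums checked, 8 had 1 library far from the other 3 by Dixon's ratio at its 95% critical value. Chance alone gives about 1 in 20 for items picked without sight of the data. These items were chosen with earlier results known, and genes that vary together are not separate cases. The number flagged is therefore a description and tests nothing. Among the members, Neurod1 stood apart in replicate 3 at 117 CPM (ratio 0.977), and Fat2 in replicate 3 at 266 CPM (ratio 0.834). Of the other granule cell genes, replicate 3 stood apart for Gabrd at 58.2 CPM, Grin2c at 24.4 CPM and Zic5 at 6.42 CPM. Replicate 1 stood apart for Barhl1 at 26.1 CPM and for Chn1 at 519 CPM. The summed level of midbrain and thalamus genes also stood apart in replicate 1, at 2512 CPM.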

How the results depend on the processing

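No member passed the threshold in any comparison under any alternative, the lowest adjusted p being 0.0816 for Fat2 in replicate 3 with no filter on low counts. All 8 kept a positive fold change in replicate 3 and a negative one in replicate 1 under every alternative run. The counts of genes called did depend on the processing. DESeq2 called 25, 5, 91 and 427 genes in replicates 1 to 4, against 3, 0, 0 and 7 for edgeR. With no filter, edgeR called 32, 86 and 416 in replicates 1, 3 and 4. For replicate 4, 0 genes were called with library totals in place of TMM, where 2040 had an unadjusted p under 0.05, and 0 with a minimum fold of 1.5. Leaving out 1 of the other libraries gave 7 to 31 calls for replicate 1, 0 to 2 for replicate 2, 1 to 33 for replicate 3 and 74 to 125 for replicate 4. Library totals in place of TMM moved the median log2 fold change over all tested genes from -0.10 to 0.10 in replicate 1 and from -0.16 to -0.31 in replicate 4. Directions in replicates 2 and 4 turned with the library left out, except for Cbln3 in replicate 4, which stayed negative (-0.93 to -0.24). Etv1 in replicate 4 had 0.00, -0.13 with library totals and -0.00086 without Rn45s. With 1 library left out, replicate 2 gave -0.43 to 0.36 for Cbln3, -0.86 to 0.24 for Fat2, -0.20 to 0.38 for Etv1, -0.73 to 0.035 for Neurod1, -0.27 to 0.80 for Neurod2, -0.18 to 0.43 for Chn2, -0.63 to 0.043 for Zic1 and -0.64 to 0.47 for Zic2. Replicate 4 gave -0.74 to 0.39 for Fat2, -0.28 to 0.30 for Etv1, -0.59 to 0.20 for Neurod1, -0.88 to 0.054 for Neurod2, -0.49 to 0.085 for Chn2, -0.31 to 0.42 for Zic1 and -0.97 to 0.061 for Zic2. The cause of these shifts was not tested. Ratios to Slc17a6 moved with length: in CPM they were -4.14 for Fat2, -4.69 for Etv1, -5.05 for Neurod1 and -6.15 for Zic2. No paired analysis was possible because all libraries belong to 1 group. The depth of 9621762 to 10988373 counts limits only the genes near the counting limit, such as Zic5, Atoh1 and Etv4.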
